A study of Mus musculus with 8 samples.

Results

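The genes described here encode the subunits of the mitochondrial respiratory chain and of ATP synthase in mouse CD8+ T cells, together with the assembly factors that share their gene names. They were taken by symbol: a probe set was included when it carried a single gene symbol that begins with Nduf, Uqcr, Cox4, Cox5, Cox6, Cox7, Cox8 or Atp5, or that is Sdha, Sdhb, Sdhc, Sdhd, Cyc1 or Cycs. This gave 184 probe sets of 92 genes, out of 18193 genes named on the arrays, and each gene was represented by the probe set with the highest mean intensity over all arrays. By complex there were 34 genes of complex I, 8 complex I assembly factors, 4 genes of complex II, 9 of complex III, 19 of complex IV, 17 of complex V and cytochrome c itself. Of the 92, 89 passed the filter on dim probe sets and were tested. The 3 that did not pass, Ndufb4, Cox7a1 and Cox7b2, stayed at or under 83.4 on every array.

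CD8+ T cells had been purified from the spleens of wild-type mice (C57BL/6) or of mice labelled Elf4-/- KO, in which the gene of the ETS-family transcription factor ELF4 is deleted. RNA came either from cells left untreated, called naive here, or from cells grown for 3.5 days on plates coated with antibody to CD3, with antibody to CD28 and a T cell growth supplement in the medium; these are the activated cells. Each of the 4 groups, wild-type naive, knockout naive, wild-type activated and knockout activated, had 2 Affymetrix arrays. Whether replicates came from different animals or cultures is not stated in the labels, so the p-values speak to the spread among these 8 samples alone, and that spread may be technical.

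The respiratory chain passes electrons from NADH (complex I) and succinate (complex II) through ubiquinone to complex III, cytochrome c and complex IV, where oxygen is reduced, and the proton gradient built on the way drives ATP synthase, complex V. Most subunits are encoded in the nucleus and must be made in step with the few encoded by mitochondrial DNA. Naive T cells rest mainly on oxidative phosphorylation, and activation is known to enlarge the mitochondrial pool while glycolysis rises. Promoters of nuclear respiratory chain genes are known for sites of the factors NRF1, GABP (an ETS factor also called NRF2) and YY1, so loss of another ETS factor poses the question whether these genes depend on it.

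The proximal promoters of these genes held such motifs. RefSeq promoters (GRCm38.p6, 250 bases before to 50 after the start) were found for 75 of the 92 genes. The ETS core CCGGAAG, searched on both strands, occurred in 19 of the 75 (25.33%), against 9.93% of 27025 genes with a promoter and 12.95% of the protein-coding ones. The NRF1 palindrome, GCGCA followed by its reverse complement, occurred in 6 (8%), against 1.07% of all genes, and the YY1 motif AAGATGGCG in 7 (9.33%), against 1.64%. The TATA motif TATAAA, included for contrast, was found in 8 (10.67%), against 15.67%. The ETS and YY1 motifs share the letters AAG and can overlap, and a match describes the sequence and does not show that a factor binds there.

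The promoters of 4 genes are printed as the 130 bases before the start, with the motif in capitals, because each pair shares a motif while its genes moved in opposite directions on activation. They were picked after the values were seen. Ndufs3, a core subunit of complex I whose level fell, and Ndufaf1, a complex I assembly factor whose level rose, share the ETS core. Atp5g2, a gene for the c subunit of ATP synthase whose level fell, and Ndufaf4, an assembly factor whose level rose, share the NRF1 palindrome.
Ndufs3 (chr2:90904722-90904851, minus strand): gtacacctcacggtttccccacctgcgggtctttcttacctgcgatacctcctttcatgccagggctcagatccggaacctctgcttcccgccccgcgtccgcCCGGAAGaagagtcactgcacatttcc
Ndufaf1 (chr2:119662835-119662964, minus strand): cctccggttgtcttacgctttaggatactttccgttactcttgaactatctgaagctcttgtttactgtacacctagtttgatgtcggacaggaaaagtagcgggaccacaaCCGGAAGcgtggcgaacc
Atp5g2 (chr15:102671048-102671177, minus strand): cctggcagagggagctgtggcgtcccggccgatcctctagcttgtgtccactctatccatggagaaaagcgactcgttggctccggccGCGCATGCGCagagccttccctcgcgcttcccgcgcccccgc
Ndufaf4 (chr4:24897953-24898082, plus strand): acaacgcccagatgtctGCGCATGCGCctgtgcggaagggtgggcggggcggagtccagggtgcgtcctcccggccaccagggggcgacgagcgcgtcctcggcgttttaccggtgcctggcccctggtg

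Several properties of the arrays bear on every comparison of states. The naive arrays had Xist, the RNA of the inactive X chromosome, at 60.3 to 172 and the Y-linked gene Eif2s3y at 2540 to 5150, while the activated arrays had 7700 to 10000 and 2.93 to 44. For Actb, the 3' probe set exceeded the 5' probe set by a ratio of 1.96 to 2.5 in naive and 5.9 to 11.1 in activated samples, a ratio that grows as RNA is degraded. The array-file labels of the naive and of the activated samples belong to different series, and both wild-type naive arrays carry the same file label although their values differ. Activation cannot be told apart from sex, array series and RNA degradation. The purified cells carried CD8 T cell genes: the 6 markers measured of 8 listed summed to 61270 to 73030 in naive and 14440 to 19050 in activated samples, while Cd4 was at or under 43.1 throughout. The 3 markers listed for CD4 T cells, Cd4, Foxp3 and Il2ra, summed to 118.6 to 163.4 in naive and 11950 to 13110 in activated samples. Only 1 of them passed the filter, with log2 changes of 7.84 in wild type and 7.47 in the knockout. The rise of this sum therefore rests on 1 gene other than Cd4. The 7 measured of 8 B cell markers summed to 27780 to 45580 in naive and 4450 to 6705 in activated samples. The 8 granulocyte markers summed to 404.5 and 688 in wild-type naive, 4647 and 19480 in knockout naive and 192.2 to 384.8 in activated samples. Of these 8, 4 were called higher in the naive knockout. Macrophage markers summed to 2022 and 2447 in wild-type naive, 3538 and 5968 in knockout naive and 516.9 to 673 in activated samples. The B cell marker Igha (log2 5.70, adjusted p = 0.00371) and the NK cell marker Klra8 (log2 2.60, adjusted p = 0.0493) were also called higher in the naive knockout. NK cell markers summed to 31080 to 35420 in naive and 9391 to 13170 in activated samples, dendritic cell markers stayed between 286.7 and 729.4, and erythroid markers between 15.2 and 299.4. Platelet markers summed to 336.6 to 484 in naive and 3278 to 4118 in activated samples. The part of these cells in the results below was not tested. In such bulk samples, fewer cells of a type and less RNA per cell cannot be told apart. The Elf4 probe sets were dim in every group (1.93 to 198.5), and where they lie relative to the deletion was not analysed here, so they do not check the genotype labels.

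On activation of wild-type cells, respiratory chain genes were called in both directions, in shares near those of all genes. Of the 89 genes, 20 rose and 24 fell, by limma with Benjamini-Hochberg adjustment over all 27348 probe sets tested and a threshold of 0.05. Across all 12783 genes tested, 45.4% were called, 21.3% higher and 24.1% lower, and among the 4602 genes with a mean intensity of at least 1000, a level chosen after the data were seen, 66.4% were called. The share of respiratory chain genes called was thus near that of all genes and under that of bright genes. Their median log2 change was -0.15, beside -0.12 over all genes, and single genes ranged from -2.16 to 2.88. With each array centred on its median, 62.8% of the calls were higher (27 higher and 16 lower), against 45.5% as reported, so the balance of rises and falls depends on the scaling. Leaving out either wild-type activated array left 1 in that group and gave fewer calls, both among these genes and over all probe sets.

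Among the rises were a subunit of complex IV and the carrier that feeds it. Cox5a, a nuclear-encoded subunit on the matrix side of cytochrome c oxidase, had intensities of 14150 and 13960 in wild-type naive, 13090 and 12340 in knockout naive, 36900 and 37990 in wild-type activated and 38420 and 42590 in knockout activated samples. Every activated array lay above every naive array. The change was 2.66-fold in wild type (log2 1.41, SE 0.10, adjusted p = 1.69e-06) and 3.18-fold in the knockout (log2 1.67, adjusted p = 4.96e-07), and 2 further probe sets of the gene gave 1.12 and 1.37 in wild type.
Cycs, cytochrome c, the mobile carrier between complexes III and IV, measured 19220 and 21220 in wild-type naive, 17040 and 14830 in knockout naive, 33360 and 34640 in wild-type activated and 34920 and 39880 in knockout activated samples. The states did not overlap, and the lowest values were those of the naive knockout. It rose 1.68-fold in wild type (log2 0.75, adjusted p = 0.000396) and 2.35-fold in the knockout (log2 1.23, adjusted p = 1.02e-05), and the other tested Cycs probe sets gave 1.24 and 1.35 in wild type.

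Complex II, which also serves the citric acid cycle, fell in its catalytic subunits in wild-type cells. Sdha, the flavoprotein that oxidises succinate, had 10910 and 9642 in wild-type naive, 9297 and 10790 in knockout naive, 3891 and 3700 in wild-type activated and 3379 and 3287 in knockout activated samples. Both genotypes dropped to a level that no naive array came near, a log2 change of -1.43 in wild type (adjusted p = 8.35e-06) and -1.58 in the knockout (adjusted p = 3.63e-06). Sdhb, the iron-sulphur subunit, fell by 0.59 on the log2 scale in wild type (adjusted p = 0.00976) and gave -0.28 in the knockout (adjusted p = 0.172), where 1 naive array, at 5620, lay near the activated level. The membrane anchors did not pass in either genotype: Sdhc gave 0.56 and 0.58 and Sdhd -0.24 and -0.22 in wild type and knockout. A second, dimmer Sdhd probe set gave 0.68 in wild type (adjusted p = 0.0858) and was called higher in the knockout (1.07, adjusted p = 0.0115).

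Complex I, the NADH dehydrogenase, showed both directions among subunits of the same arm. In wild type 9 of its 33 tested genes rose and 12 fell, with a median of -0.24. Of all genes, 21.3% rose and 24.1% fell. The largest fall was that of Ndufa6, an accessory subunit, which had 5214 and 4575 in wild-type naive, 5348 and 4876 in knockout naive, 1422 and 1500 in wild-type activated and 1079 and 1315 in knockout activated samples. All activated values lay under the naive values, with log2 changes of -1.73 (adjusted p = 7.49e-06) and -2.09 (adjusted p = 1.83e-06). Ndufb10 and Ndufb3, both of the membrane arm, fell by 1.10 and 1.08 in wild type. Among the core subunits, which carry the redox centres and are conserved in bacteria, Ndufs3 fell by 0.90, Ndufv1, which binds NADH, by 0.73, and Ndufs8 by 0.58, while Ndufs1, Ndufs7 and Ndufv2 did not pass in wild type. None of the 6 core subunits tested rose in wild type, and in the knockout Ndufv2 rose by 0.38 (adjusted p = 0.0465) while the same 3 fell.

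Rises in complex I were found among accessory subunits. Ndufc1, of the membrane arm, had 4746 and 4736 in wild-type naive, 4476 and 5166 in knockout naive, 8661 and 8413 in wild-type activated and 8874 and 10950 in knockout activated samples. The naive values of the genotypes interleaved and all activated values were higher, with log2 changes of 0.85 (adjusted p = 0.000547) and 1.03 (adjusted p = 0.000121). Ndufb6, also of the membrane arm, rose by 0.45 and 0.91. Ndufa12 rose by 1.2 and 0.83 in wild type and knockout and is described with the genotypes below. Ndufb1 had the largest rise, 2.88 in wild type and 2.26 in the knockout (adjusted p = 0.00101 and 0.00435), on a dim probe set that read 31.6 to 143 in naive and 355.1 to 785.8 in activated samples. The offset of 16 added before taking logs shrinks the change of such dim genes.

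The assembly factors of complex I with Nduf names, which build the complex and leave it, had a median of 0.49 in wild type and 0.80 in the knockout, beside -0.24 and -0.07 for the subunits. The 9 other complex I assembly factors tested, listed apart, had medians of -0.41 and -0.32. Of the 8 with Nduf names, 3 rose and 2 fell in wild type, and 5 rose and 1 fell in the knockout. The shares of all genes called were 45.4% and 48.1%. Ndufaf4 measured 2447 and 3028 in wild-type naive, 2345 and 1766 in knockout naive, 5899 and 5051 in wild-type activated and 6863 and 6936 in knockout activated samples. The states were separate and the knockout held both the lowest and the highest pair, with log2 changes of 1.0 (adjusted p = 0.000804) and 1.75 (adjusted p = 1.34e-05). A second Ndufaf4 probe set did not pass in either genotype (0.49 and 0.22). Ndufaf6 rose by 1.33 and Ndufaf1 by 0.74 in wild type. Ndufaf3, a partner of Ndufaf4 in building complex I, went the other way, from 826.3 and 832.4 to 314 and 255.9 in wild type (log2 -1.50, adjusted p = 0.000562) and by -1.34 in the knockout. Ndufaf8 fell by 0.62 in wild type and gave -0.33 in the knockout (adjusted p = 0.0891), and Ndufaf2 gave 0.60 in wild type (adjusted p = 0.0611) and rose by 0.94 in the knockout.

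**Figure D1:**
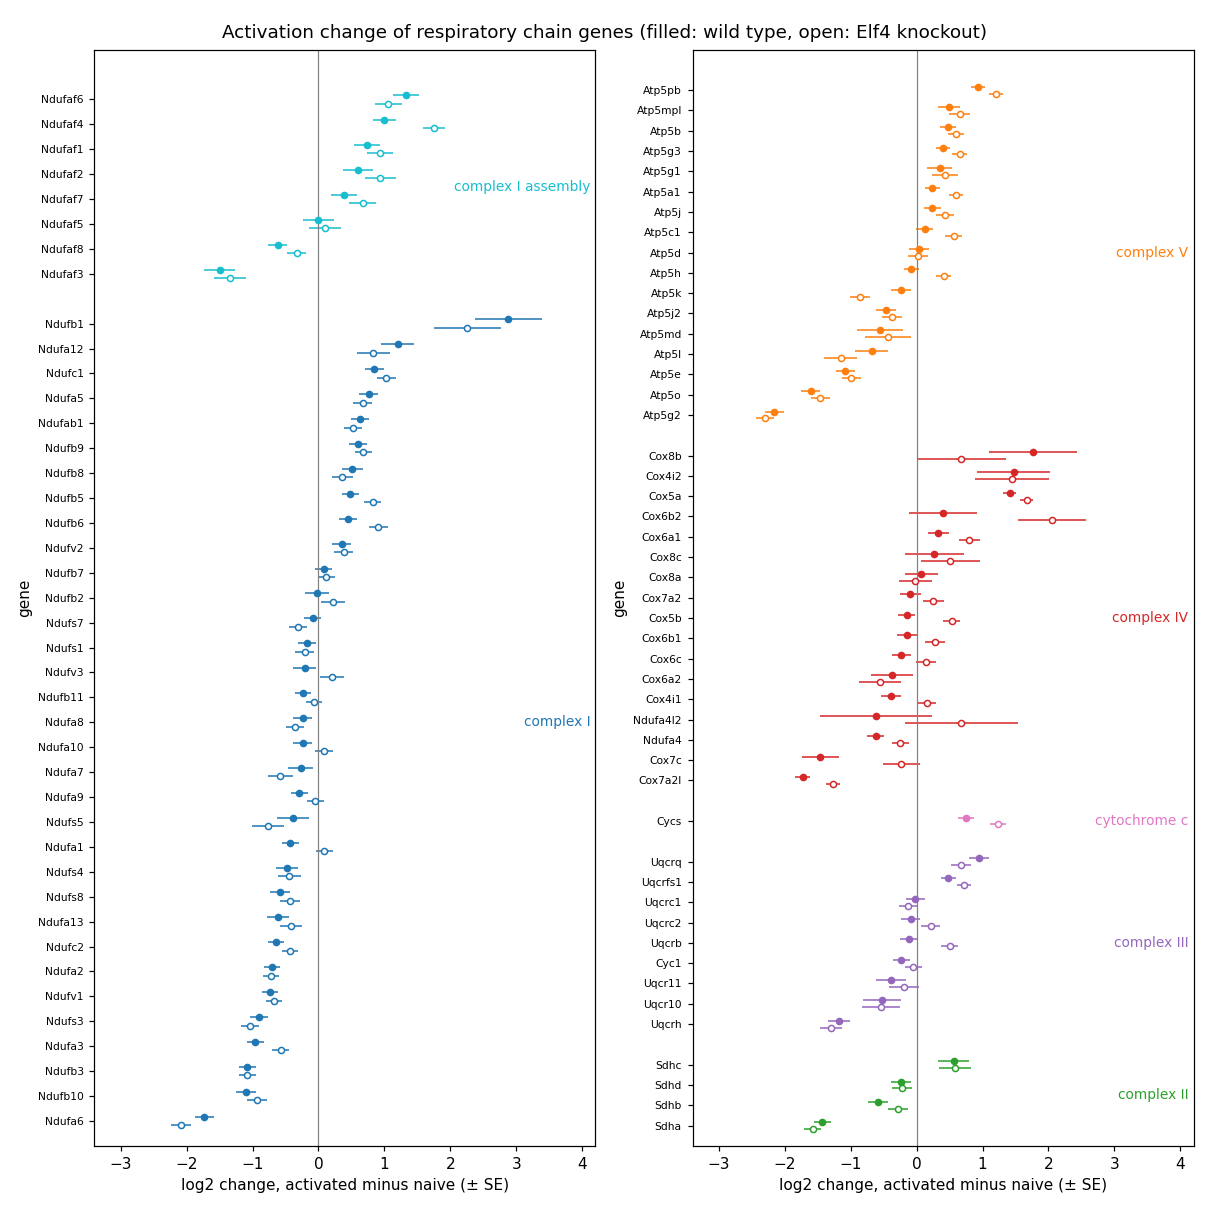
Each row is 1 tested gene, grouped by complex, and the horizontal axis is the log2 change from naive to activated cells, with bars of 1 SE; filled points are wild type and open points the Elf4 knockout, 2 arrays per group. Within complexes I, IV and V genes lie on both sides of 0, from Atp5g2 at -2.16 to Ndufb1 at 2.88 in wild type, and the filled and open points of a gene mostly lie close together.

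In complex III, the cytochrome bc1 complex, 2 of 9 genes rose and 1 fell in wild type, and 3 rose and 1 fell in the knockout. Over all genes 45.4% and 48.1% were called. The Rieske iron-sulphur protein Uqcrfs1 rose by 0.48 and 0.72 in wild type and knockout (adjusted p = 0.0055 and 0.000373). Uqcrh, the hinge protein that helps dock cytochrome c, had 11720 and 8259 in wild-type naive, 8500 and 10570 in knockout naive, 4563 and 4133 in wild-type activated and 3993 and 3682 in knockout activated samples. Its naive replicates spread widely, yet the activated values lay well under the lowest of them, with log2 changes of -1.18 (adjusted p = 0.000309) and -1.30 (adjusted p = 0.000136). A second Uqcrh probe set gave -1.13 and -1.01. Uqcrq rose by 0.94 and 0.67, but its 3 other, dimmer probe sets gave -2.0 to -0.29 in wild type without passing. Cyc1, the cytochrome c1 subunit that hands electrons to cytochrome c, gave -0.23 and -0.05 and did not pass (adjusted p = 0.183 and 0.801), nor did the core proteins Uqcrc1 and Uqcrc2.

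In complex IV, cytochrome c oxidase, Cox5a was the only rise in wild type among 17 tested genes, and Cox7a2l, Cox7c and Ndufa4 fell. In the knockout 4 of the 17 rose and 1 fell. Among all genes 45.4% were called in wild type and 48.1% in the knockout. Cox7a2l, a factor that joins complexes III and IV into supercomplexes, had 39050 and 42510 in wild-type naive, 33690 and 30460 in knockout naive, 12730 and 11900 in wild-type activated and 12430 and 14130 in knockout activated samples. Naive and activated values stood far apart, and among naive samples both knockout values lay under both wild-type values. The log2 change was -1.73 in wild type (adjusted p = 8.77e-07) and -1.27 in the knockout (adjusted p = 6.82e-06), and the gene's other probe sets also gave falls in wild type. Ndufa4, first named as a complex I subunit and now placed in complex IV, fell by 0.62 in wild type (adjusted p = 0.00281) and gave -0.25 in the knockout (adjusted p = 0.145).

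Complex IV subunits with tissue-restricted isoforms were measured beside their common partners. Several common forms were bright: Cox4i1 measured 18640 to 26990 over the 8 arrays, Cox6a1 15360 to 35720, Cox6b1 18590 to 28950 and Cox7a2 15780 to 25610. The common form Cox8a read less, 634.7 to 1141. These are readings of different probe sets, which cannot be compared as levels. Cox4i1 gave -0.39 in wild type (adjusted p = 0.0549) and 0.15 in the knockout (adjusted p = 0.451), and Cox6b1, Cox7a2 and Cox8a passed in neither genotype. Cox6a1 gave 0.33 in wild type (adjusted p = 0.137) and rose by 0.80 in the knockout (adjusted p = 0.00232), but its second probe set fell in both genotypes (-1.21 and -1.34). The restricted forms were dim and noisy. Cox4i2, known from lung, measured 11.6 to 33.1 on naive and 52.1 to 135.5 on the activated ones, with log2 changes of 1.47 and 1.45 that did not pass (adjusted p = 0.0598 and 0.0591). Cox6b2, known from testis, rose by 2.05 in the knockout (adjusted p = 0.00882) from 13.7 and 28 to 147.3 and 121.6, and in wild type gave 0.40 with activated replicates of 137 and 53.9. Cox4i2 and Cox6b2 each reached the array median on 3 arrays only, all activated. Both were thus tested because they were high in that state, which favours a rise. The muscle forms Cox6a2 and Cox8b, the testis form Cox8c and Ndufa4l2, known from hypoxic cells, did not pass in either genotype.

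In complex V, 4 of 17 genes rose and 4 fell in wild type, and 8 rose and 5 fell in the knockout. Among all genes 45.4% were called in wild type and 48.1% in the knockout. The genes Atp5g1, Atp5g2 and Atp5g3 encode the same mature c subunit of the rotor ring behind different import sequences, and they did not move together. Atp5g2 measured 6480 and 5974 in wild-type naive, 5564 and 5537 in knockout naive, 1374 and 1386 in wild-type activated and 1048 and 1183 in knockout activated samples. It was 4.47-fold lower in activated wild-type cells (log2 -2.16, SE 0.14, adjusted p = 7.1e-07) and 4.93-fold lower in the knockout (log2 -2.30, adjusted p = 4.3e-07). Atp5g3 measured 21810 and 24870 in wild-type naive, 21800 and 21210 in knockout naive, 31920 and 29800 in wild-type activated and 32310 and 35330 in knockout activated samples. Its activated values were all above its naive values, a rise of 0.40 (adjusted p = 0.0114) and 0.65 (adjusted p = 0.000573). Atp5g1 gave 0.35 and 0.43 and did not pass. The bright Atp5g2 probe set carries its fall alone, since a second, dim one gave 0.53 without passing.

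The stalk of ATP synthase holds the catalytic head still. Atp5pb, the b subunit, had 11880 and 12340 in wild-type naive, 11550 and 11270 in knockout naive, 23420 and 22810 in wild-type activated and 24170 and 28410 in knockout activated samples. It rose 1.91-fold and 2.3-fold (adjusted p = 6.38e-05 and 9.24e-06). Atp5o, the subunit that joins the stalk to the head, had 6342 and 7043 in wild-type naive, 7658 and 5941 in knockout naive, 2243 and 2127 in wild-type activated and 2540 and 2357 in knockout activated samples. It fell by 1.61 and 1.46 on the log2 scale (adjusted p = 1.13e-05 and 2.02e-05), but a second Atp5o probe set gave 0.15 and 0.34 without passing, so the fall rests on the brightest probe set. The beta subunit Atp5b, of the head, rose by 0.47 and 0.60, and the epsilon subunit Atp5e fell by 1.08 and 0.99. Atp5mpl, a small membrane subunit, rose by 0.49 and 0.65. The alpha and gamma subunits Atp5a1 and Atp5c1 passed in the knockout alone, at 0.60 and 0.56, beside 0.24 and 0.12 in wild type. The membrane subunits Atp5k and Atp5l likewise fell in the knockout, by 0.86 and 1.15.

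**Figure D2:**
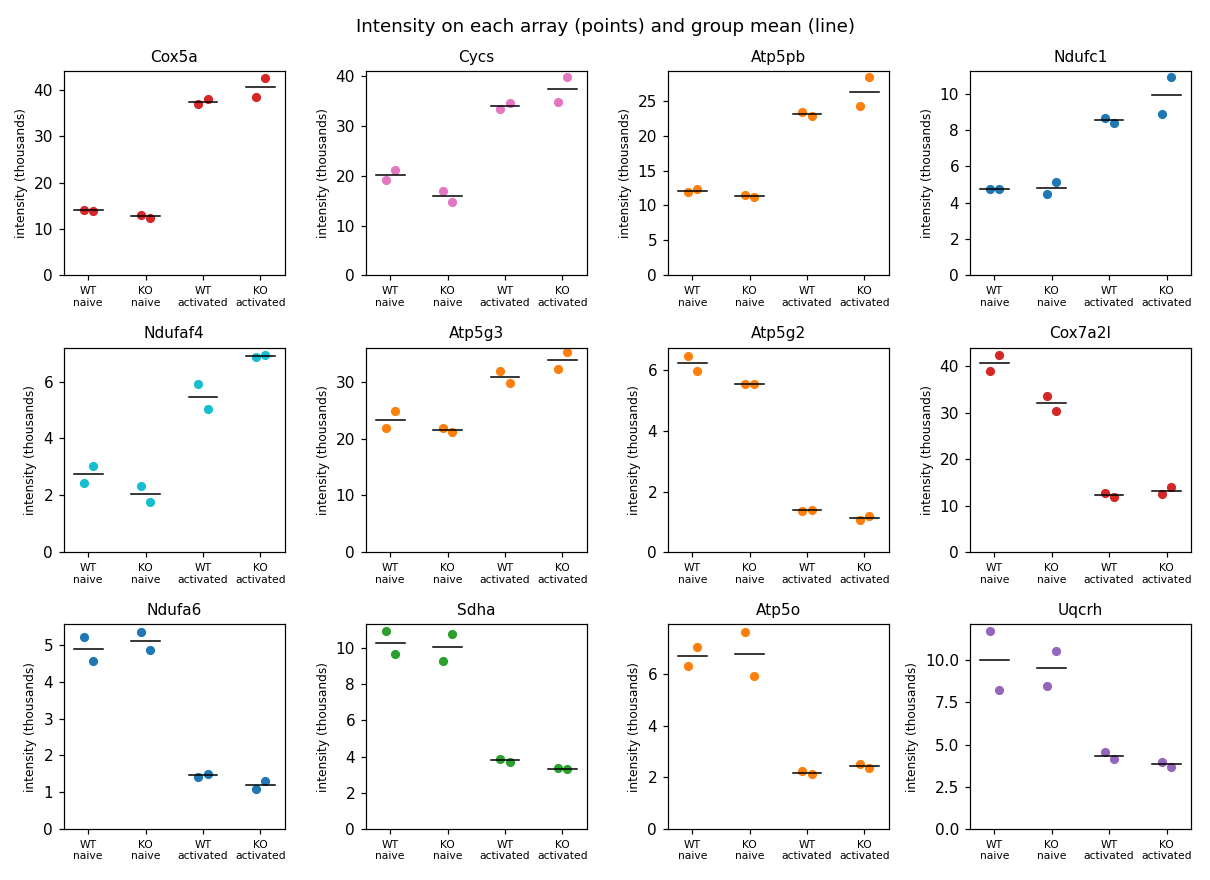
Each panel is 1 gene and shows the linear intensity divided by 1000 on each of the 8 arrays as points, with the mean of the 2 arrays of a group as a line, for wild type (WT) and knockout (KO). Cox5a, Cycs, Atp5pb, Ndufc1, Ndufaf4 and Atp5g3 were higher on every activated array than on every naive array, and Atp5g2, Cox7a2l, Ndufa6, Sdha, Atp5o and Uqcrh were lower.

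In the knockout 30 of the 89 genes rose and 20 fell on activation, where 48.1% of all genes were called, 21.9% higher and 26.1% lower. The median change was 0.12, beside -0.12 over all genes. Counted gene by gene, 19 rose in both genotypes, 16 fell in both and 30 passed in neither. A rise was called in wild type alone for 1 gene and in the knockout alone for 11, and a fall in wild type alone for 8 and in the knockout alone for 4. No gene was called in opposite directions. Across the 89 genes the log2 changes of the genotypes had r = 0.897 and rho = 0.911, a description over genes that share the 8 arrays, and 74 had the same sign. The knockout balance rests on single arrays: 22 rose and 25 fell without knockout naive replicate 2, the array with the most granulocyte RNA, and 18 rose and 21 fell without knockout activated replicate 2, the array with the highest Actb ratio. With quantile normalization 25 rose and 25 fell. Whether granulocyte RNA or the Actb ratio had a part in this balance was not tested.

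The direct test of whether activation acted differently in the knockout called 0 of 89 genes, where 0.0861% of all genes were called (limma). Of the 89, 14 had an unadjusted p under 0.05, as had 11.6% of all genes. The smallest adjusted p was that of Cox5b, a zinc-binding subunit of complex IV, with a difference of 0.67 (95% interval 0.26 to 1.08, adjusted p = 0.245), followed by Uqcrb (0.61, 0.275) and Atp5h (0.50, 0.311). The difference was positive for 62 of 89 genes, with a median of 0.16, beside -0.03 over all genes. A gene called in 1 genotype alone is therefore not shown to respond differently. The median was 0.08 without knockout naive replicate 2 and 0.05 without knockout activated replicate 2.

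The comparison of naive knockout with naive wild-type cells asked whether resting cells without ELF4 express the respiratory chain at another level. No gene passed: 0 of 89 were called, where 0.837% of all genes were called (limma, 15 genes at an unadjusted p under 0.05, as had 14% of all genes). The median was -0.12, with 68 negative and 21 positive values, beside 0.02 over all genes. Of the 89 genes, 40 had both knockout values under both wild-type values and 4 had both above, where 19.3% and 20.3% of all genes did. The replicates of the knockout were not alike: knockout naive replicate 2 was the lowest of the 4 naive arrays for 54 genes, knockout replicate 1 for 12 and the wild-type replicates for 10 and 13. Among genes with a mean intensity of at least 1000, knockout naive replicate 2 was the lowest array for 29.3%. This array also had the highest granulocyte sum, 19480, and the highest B cell sum, 45580, whose part in the result was not tested. Without this array the median was -0.10.

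The genes with the smallest p-values in naive cells belonged to complexes III and IV. Cox5b had 28150 and 29620 in wild type and 22940 and 18730 in the knockout (log2 -0.48, 95% interval -0.77 to -0.19, adjusted p = 0.179), and its 4 other tested probe sets gave -1.07 to -0.24. Uqcrb, a subunit of complex III that takes part in ubiquinone binding, had 46290 and 45890 against 39540 and 30340 (log2 -0.41, adjusted p = 0.229), and its second, dimmer probe set gave 0.05. Cox7c had 774 and 717.8 against 334.1 and 479.1 (log2 -0.87, adjusted p = 0.239). For each, both knockout values lay under both wild-type values, by less than the test across all probe sets could call. Cycs gave -0.34 (95% interval -0.60 to -0.09, adjusted p = 0.263) and Sdha -0.03 (-0.32 to 0.25). The 95% interval lay within 1 log2 unit of 0 for 81 of the 89 genes and within 0.5 for 35.

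**Figure D3:**
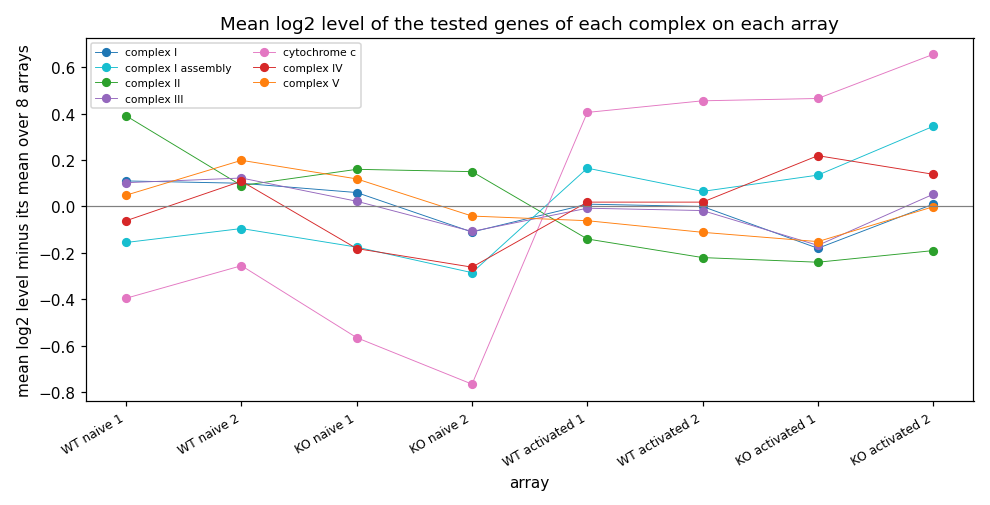
For each complex the mean log2 level of its tested genes on each of the 8 arrays is shown as a difference from its mean over all arrays; lines join the points of a complex to guide the eye. Knockout naive replicate 2 is the lowest naive array for complexes I, III, IV and V, the assembly factors and cytochrome c, and cytochrome c and the complex I assembly factors are higher on every activated array than on every naive array.

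In activated cells the genotypes also gave 0 calls among the 89 genes, where 0.289% of all genes were called (limma). Of the 89, 7 had an unadjusted p under 0.05, as had 12.6% of all genes. The median was 0.04, and 24 genes had both knockout values above and 20 had both under the wild-type values, where 25.2% and 25.7% of all genes did. Ndufa12, an accessory subunit of complex I, stood nearest to a call: it measured 13190 and 13010 in activated wild-type cells, against 6015 and 6965 in activated knockout cells. The naive values were 6066 and 5333 in wild type and 5157 and 2566 in the knockout (log2 -0.64, adjusted p = 0.334). The test of a different activation change in the knockout gave -0.37 (adjusted p = 0.801). In activated cells the difference was -1.02 on the log2 scale (SE 0.25, 95% interval -1.57 to -0.46, adjusted p = 0.155). The gene's 2 other tested probe sets gave -0.55 and -0.29 (adjusted p = 0.4 and 0.601). Fitted by limma without the naive arrays, Ndufa12 was called (adjusted p = 0.00163), as it was with array weights (adjusted p = 0.0319). These fits called 734 and 438 of all probe sets, against 59 in the fit reported here. The change of -1.02 is taken between the activated arrays alone, so leaving out a naive array cannot alter it. Next were Atp5k (-0.46, adjusted p = 0.289) and Atp5a1 (0.30, adjusted p = 0.373). Knockout activated replicate 2 was the highest activated array for 46 of the 89 genes. Among genes with a mean intensity of at least 1000 it was the highest for 26.1%. This array had an Actb ratio of 11.1 where the other activated arrays had 5.9 to 7.44. With that ratio as a covariate the median was -0.13. Both activated knockout arrays had higher ratios (7.44 and 11.1) than both activated wild-type arrays (5.98 and 5.9). The ratio thus went with genotype, so -0.13 is not a genotype change freed of RNA degradation.

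Genes with an ETS core in the promoter had medians by genotype near those of the genes without one. The medians for the 19 with a match were -0.12 in naive and 0.01 in activated cells. For the 53 tested genes without one they were -0.11 and 0.02. Calls numbered 0 in both sets and states. Only 0.837% of all genes were called in naive and 0.289% in activated cells, so 0 calls among so few genes cannot tell the sets apart. On activation of wild-type cells 2 of the 19 rose and 6 fell, and 14 of the 53 rose and 17 fell. Of all genes, 21.3% rose and 24.1% fell. For the 6 genes with the NRF1 palindrome the medians by genotype were -0.18 in naive and -0.09 in activated cells, again with 0 calls.

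**Figure D4:**
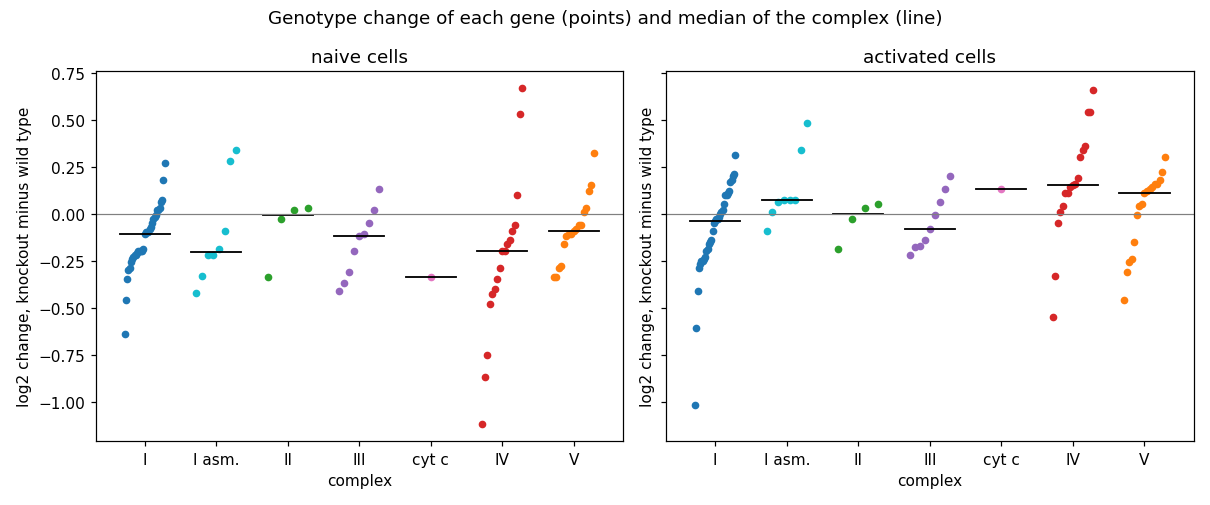
The log2 change from wild type to knockout is shown for each tested gene as a point, by complex (cyt c is cytochrome c, I asm. the complex I assembly factors), in naive cells on the left and activated cells on the right; lines mark the median of the complex. Most naive points lie under 0, with medians of -0.11 for complex I and -0.20 for complex IV, and the activated points lie around 0.

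Probe sets of the same gene did not always give the same answer, and MAS5 intensities of different probe sets cannot be compared as levels. Of 50 genes with several tested probe sets, 27 had all of them on the same side of 0 on activation in wild type and 24 in the knockout. Of the 26 such genes called in wild type, 17 had all probe sets on the same side, 12 had all of them called, and 2, Ndufc2 and Ndufb5, had another probe set called the opposite way. Ndufc2 gave -0.64 by its brightest probe set and 1.34 and 1.47 by the others, and Ndufb5 gave 0.48 and -1.04. In the knockout 7 of 30 called genes had an opposite call: Cox6a1, Atp5h, Ndufc2, Ndufb9, Ndufb5, Ndufv2 and Ndufa5. Among genes whose brightest probe set was not called, another was called with the opposite sign for 7 in wild type (Uqcrb, Cox6a1, Cox5b, Atp5d, Ndufb7, Ndufv2 and Cox8a) and for 6 in the knockout (Cox7a2, Atp5d, Ndufb7, Cox6c, Ndufs4 and Sdhd). The activated arrays had the higher 3' to 5' ratios, and whether a probe set's place in the transcript relates to these differences was not tested.

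**Figure D5:**
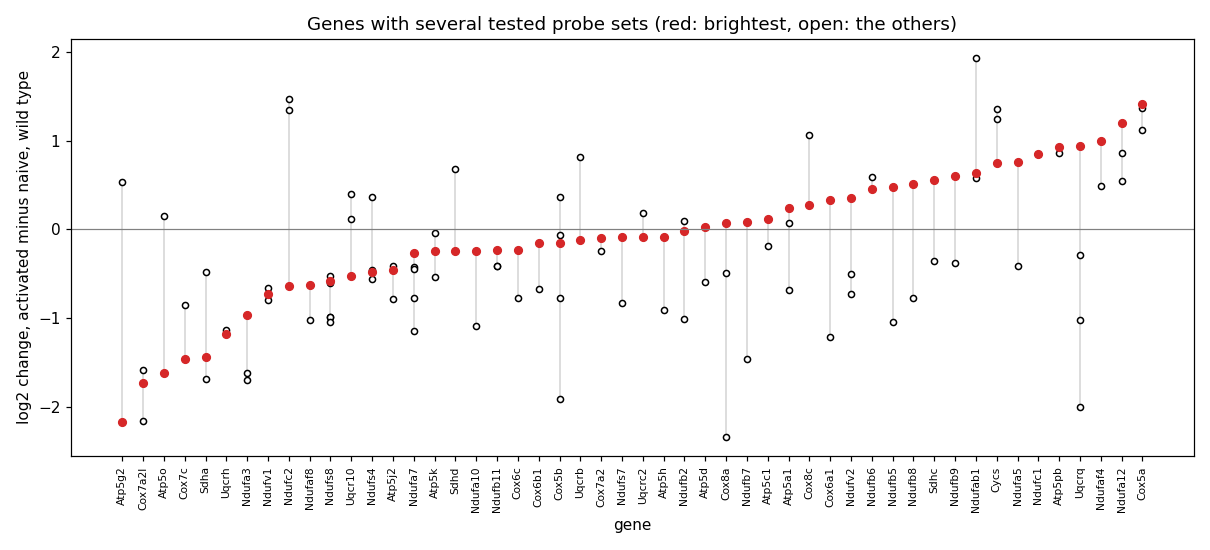
For each gene with several tested probe sets, the log2 change from naive to activated wild-type cells is shown for the brightest probe set (red) and for the others (open), ordered by the brightest. Cox5a, Cycs and Cox7a2l have probe sets within 1 log2 unit of each other, while those of Uqcrq span -2.0 to 0.94 and those of Ndufc2 -0.64 to 1.47.

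Other genes of the same machinery, from lists written with earlier results of these data known, also moved both ways on activation. ND5, the only mitochondrially encoded subunit measured of 13 listed, fell from 24800 and 21730 to 4998 and 4516 in wild type and from 18740 and 12700 to 4352 and 5560 in the knockout (log2 -2.28 and -1.65, adjusted p = 4e-06 and 3.79e-05). Of 18 complex IV assembly factors 6 rose and 9 fell in wild type, where 21.3% of all genes rose and 24.1% fell. Among them the copper chaperone Cox17 rose from 6489 and 5855 to 25270 and 21530 (log2 1.92, adjusted p = 1.02e-06), while Surf1 and Coa6 fell by 0.99 and 1.02. Of 13 assembly factors of complexes II, III and V, 1 rose and 7 fell: Tmem70, which helps build ATP synthase, rose by 1.86, and the complex III factors Uqcc3 and Ttc19 fell by 2.24 and 1.78. Of 9 complex I factors outside the naming rule 2 rose and 2 fell, with Nubpl at 1.06, Dmac1 at -0.98 and Dmac2 at -2.27.

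In the lists of genes that feed or maintain the chain more genes rose than fell in wild-type cells. Over all genes 21.3% were called higher and 24.1% lower. Of 19 carriers, porins and coenzyme Q genes, 11 rose and 1 fell, with a median of 0.62. The outer membrane porins Vdac2 and Vdac3 rose by 1.55 and 1.28. Gpd2, the mitochondrial glycerol-3-phosphate dehydrogenase, which passes electrons to ubiquinone, had 870.7 and 783.9 in wild-type naive, 390.7 and 458.4 in knockout naive, 2652 and 2559 in wild-type activated and 2437 and 2235 in knockout activated samples. It rose by 1.64 and 2.42 on activation. Gpd2 was the 1 gene of the 7 pathway lists called by genotype in naive cells, where 0.837% of all genes were called. It was lower in the knockout (log2 -0.94, adjusted p = 0.0388). Of 16 citric acid cycle genes 8 rose and 2 fell: Fh1, fumarase, rose by 1.35 and Sucla2, a subunit of succinyl-CoA synthetase, by 1.11, while Idh2, the mitochondrial NADP-dependent isocitrate dehydrogenase, fell from 2523 and 2192 to 520 and 348 (log2 -2.42, adjusted p = 1.37e-05). Of 16 factors of mitochondrial DNA and biogenesis 7 rose and 2 fell, with Gabpb1, the beta subunit of GABP, at 2.40, the coactivator Pprc1 at 1.01 and Yy1 at 0.85 (-0.03 by the mean of its probe sets). Beside the respiratory chain genes, with a median of -0.15 in wild type, these 3 lists had medians of 0.62, 0.50 and 0.28.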

How the data were processed

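RNA of 8 samples was hybridised to 1 Affymetrix array each, and the authors deposited linear MAS5 intensities, per the submitters' processing notes; no version of it is given in the sources used here. Every array had a trimmed mean of 500 and no value at or under 0, and precision is limited by there being 2 arrays a group. Of 45101 probe sets, 64 controls were left out. Among all probe sets, 34958 had 1 gene symbol in the platform annotation, 932 several and 9211 none; 34754 symbols were updated through Entrez identifiers and 204 kept. Another 10 probe sets with several symbols, one of them fitting the naming rule, were not used.

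Log2(intensity + 16) was fitted with limma 3.58.1 in R 4.3.3 (lmFit, and eBayes with a trend) to the 4 group means, so that the groups share one estimate of the spread (4 residual degrees of freedom, 6.7 prior). A probe set was tested if 2 or more arrays had it no lower than their median, which kept 27348, and p-values were adjusted by Benjamini-Hochberg within each of 5 contrasts, with a threshold of 0.05. A log2 change is on the log2(intensity + 16) scale, which understates the change of dim genes.

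The members and the 16 gene lists (166 entries, 141 measured) were chosen with earlier results of these data known. Named were the 3 largest called rises and falls per complex in each activation comparison, the 3 smallest p-values in each genotype comparison, complex II, Cyc1, Cycs, isoforms with their partners, and 3 genes per pathway list; Atp5a1, Atp5c1, Ndufs1, Ndufs7, Ndufs8, Uqcrc1, Uqcrc2 and the genes with opposed probe sets were added after their values were seen. Alternatives changed the offset, scaling, filter, variance prior, array weights, probe set choice, replicate block, Actb ratio and each array in turn. Same-numbered replicates correlated at -0.167 to 0.0685 in their deviations from the group means, so no pairing was assumed. Changes simulated on these probe sets were used to test the fit.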

Additional observations from a re-analysis of the deposited data

How the results depend on the processing

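With only 2 arrays a group, leaving out 1 array assumes that the lone sample varies like the other groups. The 44 calls on activation in wild type were 15 with a log2 change of at least 1 (4 higher and 11 lower) and 29 to 48 with 1 array left out, the lowest without wild-type activated replicate 1. The 50 calls in the knockout were 18 with that limit (8 higher and 10 lower) and 39 to 54 with 1 array left out. The naive genotype count of 0 was 0 to 2 with 1 array left out: without knockout naive replicate 1, Ndufa12 (-1.14, adjusted p = 0.0152) and Uqcrb (-0.60, adjusted p = 0.0472) were called. The activated genotype count of 0 was 1, Ndufa12, with the 4 arrays alone and with array weights, and 0 to 1 with 1 array left out; the interaction count was 0 in every alternative run. With the replicate number as a replicate block, 42, 48, 0, 0 and 0 genes were called on activation in wild type and knockout, by genotype in naive and activated cells and in the interaction. A crossed replicate block, chosen after seeing the data because the naive groups' numbers correlated at -0.167, gave 47, 52, 0, 0 and 0.

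The share of activation calls that were higher was 45.5% in wild type and 60% in the knockout; it was 62.8% and 67.3% with each array centred on its median, 46.9% and 50% with quantile normalization, and 35.8% and 45.7% with the mean of all probe sets of a gene. Centring moved the median of all probe sets from -0.15 to 0.04 in wild type, from -0.16 to -0.04 in the knockout and from 0 to 0.10 for the naive genotypes. The median over the respiratory chain genes was, in wild-type activation, -0.15 and became 0.04 with centring, -0.28 with the mean of probe sets and -0.15 to -0.09 with 1 array left out. In knockout activation it was 0.12 and became -0.04 with quantile normalization, 0.24 with centring, -0.12 with the mean of probe sets and -0.02 to 0.25 with 1 array left out. For the naive genotypes -0.12 became -0.05 with quantile normalization, -0.02 with centring and -0.22 to -0.10 with 1 array left out. For the activated genotypes 0.04 became -0.13 with the Actb ratio as a covariate and -0.06 to 0.10 with 1 array left out. The interaction median of 0.16 became 0.05, 0.09 and -0.03 with quantile normalization, centring and the Actb ratio, and 0.05 to 0.25 with 1 array left out. The cause of these shifts was not tested.

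Of 28 named genes called in wild-type activation, 18 kept their call in every alternative other than the limit of a log2 change of at least 1, which was applied to the counts alone, and of 26 in the knockout, 20 did. The direction turned for 4 called values. With the mean of all probe sets, Uqcrq gave -0.59 in wild type and -0.21 in the knockout, Cox6a1 -0.27 in the knockout and Yy1 -0.03 in wild type; without probe sets ending in _x_at or _s_at, Uqcrq gave -0.29 in wild type. Values that had not passed turned as follows. With the mean of probe sets, wild type gave 0.22 for Sdhd, -0.44 for Cox6a1 and -0.92 for Cox8a, and the knockout 0.42 for Sdhd, -0.11 for Cox7a2 and -0.01 for Cox8c. With centring, wild type gave 0.04 for Cox6b1 and 0.09 for Cox7a2, and the knockout 0.07 for Cyc1 and 0.10 for Cox8a. With quantile normalization, the knockout gave -0.17 for Cox4i1, -0.04 for Cox6b1, -0.04 for Cox7a2 and 0.13 for Cox8a. Without probe sets ending in _x_at or _s_at, Cox8a gave -0.49 in wild type and 0.07 in the knockout. With 1 array left out, wild type gave -0.17 to 0.96 for Cox6b2, -0.35 to 0.49 for Cox8a and -0.06 to 0.60 for Cox8c. The knockout gave -0.19 to 0.09 for Cyc1, -0.04 to 0.33 for Cox4i1, -0.02 to 0.53 for Cox7a2, up to 0.11 for Cox8a, -0.14 to 1.49 for Cox8b and -0.18 to 1.2 for Cox8c. The cause was not tested.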
